A study of Arabidopsis thaliana with 6 samples.

Results

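The genes described here carry out nitrate assimilation and the synthesis of asparagine, and they were listed by locus identifier for their known roles, with earlier results of these data known. They were 10 of the 32833 genes listed in the count tables. They comprise the nitrate transporters NRT1.1 (AT1G12110) and NRT2.1 (AT1G08090), the nitrate reductases NIA1 (AT1G77760) and NIA2 (AT1G37130), the nitrite reductase NIR1 (AT2G15620), the glutamine synthetases GLN2 (AT5G35630) and GLN1;1 (AT5G37600), the glutamate synthase GLU1 (AT5G04140), and the asparagine synthetases ASN1 (AT3G47340) and ASN2 (AT5G65010). All 10 passed the filter on low counts and were tested.

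On the TAIR10.1 assembly the transporters and nitrate reductases lie on chromosome 1, NRT2.1 at chr1:2524023-2526322, NRT1.1 at chr1:4105223-4109601 and NIA2 at chr1:14158452-14161938 on the plus strand, and NIA1 at chr1:29235721-29239484 on the minus strand. NIR1 lies at chr2:6810395-6812941 (plus) and ASN1 at chr3:17437840-17441431 (minus). The remaining genes are on chromosome 5, GLU1 at chr5:1129785-1138488, GLN2 at chr5:13830429-13833542 and ASN2 at chr5:25969035-25972575 on the plus strand, and GLN1;1 at chr5:14933286-14935885 on the minus strand.

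Transcripts were counted by RNA-seq in untreated *Arabidopsis thaliana* seedlings, 14 days old and grown in long days. Of the 3 genotypes, each with 2 libraries, Col-0 was the wild type and *fio1-1* and *fio1-2* were the mutants. FIO1 is the plant relative of the human RNA methyltransferase METTL16. *fio1-1* is an EMS allele that alters a splice site and removes a few amino acids of FIO1, while the libraries labelled *fio1-2* most likely stem from the CRISPR line of the study, named *fio1-5* in its text, where *fio1-2* is a T-DNA line. Each mutant group stands for a single allele and each library for a pool of seedlings. Roots and shoots were not measured apart, and markers of both were detected in every library. The labels describe growth on soil and the methods of the study describe agar plates, so the nitrogen supply of the plants is not settled.

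Plants take up nitrate through low- and high-affinity transporters and reduce it in the cytosol to nitrite with nitrate reductase. Nitrite is reduced to ammonium in plastids by nitrite reductase, and ammonium is built into glutamine and glutamate by glutamine synthetase and glutamate synthase acting in a cycle. Asparagine synthetase moves the amide group of glutamine to aspartate, and asparagine serves as a form in which nitrogen is stored and carried. Many of these genes are known as quick responders to nitrate, whereas ASN1 is known as a gene that the dark and sugar starvation switch on.

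The promoters of both transporters and both asparagine synthetases are shown, since NRT2.1 and ASN2 had the largest changes in both mutants and NRT1.1 and ASN1 are their counterparts. A link between these sequences and the changes was not tested. Each sequence covers the 300 bases before the annotated start of the gene, 5′ to 3′ on the strand of the gene, from the RefSeq annotation of TAIR10.1. Capitals mark the letters of 3 short motifs found on either strand, namely the G-box CACGTG, the element ACTCAT that bZIP factors are known to bind, and the element GAATC that factors related to HRS1 are known to bind.
NRT1.1, chr1:4104923-4105222, plus strand: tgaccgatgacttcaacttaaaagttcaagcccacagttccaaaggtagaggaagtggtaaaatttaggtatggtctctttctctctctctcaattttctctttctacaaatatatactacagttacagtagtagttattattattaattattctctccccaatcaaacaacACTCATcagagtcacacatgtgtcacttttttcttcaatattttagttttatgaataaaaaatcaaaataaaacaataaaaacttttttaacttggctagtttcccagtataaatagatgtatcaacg
NRT2.1, chr1:2523723-2524022, plus strand: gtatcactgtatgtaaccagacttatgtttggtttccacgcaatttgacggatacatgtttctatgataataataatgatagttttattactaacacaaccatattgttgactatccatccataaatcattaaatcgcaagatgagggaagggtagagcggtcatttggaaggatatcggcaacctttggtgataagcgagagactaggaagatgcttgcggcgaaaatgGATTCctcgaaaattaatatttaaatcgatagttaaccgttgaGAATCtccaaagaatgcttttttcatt
ASN1, chr3:17441432-17441731, minus strand: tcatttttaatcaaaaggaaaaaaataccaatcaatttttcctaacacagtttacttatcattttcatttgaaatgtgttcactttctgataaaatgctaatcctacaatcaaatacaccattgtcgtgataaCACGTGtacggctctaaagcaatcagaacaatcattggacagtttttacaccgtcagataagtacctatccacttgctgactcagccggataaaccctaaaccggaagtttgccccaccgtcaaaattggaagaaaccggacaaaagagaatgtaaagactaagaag
ASN2, chr5:25968735-25969034, plus strand: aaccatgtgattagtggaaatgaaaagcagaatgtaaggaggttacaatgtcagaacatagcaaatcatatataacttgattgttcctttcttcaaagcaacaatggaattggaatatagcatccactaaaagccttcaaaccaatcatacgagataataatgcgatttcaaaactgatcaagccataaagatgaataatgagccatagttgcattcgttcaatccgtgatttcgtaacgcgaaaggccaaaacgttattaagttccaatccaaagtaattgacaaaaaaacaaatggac

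A G-box was found in the window of ASN1 alone among the 10 genes, starting 167 bases before its start, and in 7.09% of the 27438 protein-coding genes with such a window. ACTCAT was found in the windows of NRT1.1 and NIA1 and in 14.8% of all windows. GAATC was found in 5 of the 10 windows (NIA1, NIR1, NRT2.1, GLN1;1 and GLU1) and in 45.0% of all windows. The core of the nitrate-responsive element, read as GACNCTT and AAG with 10 bases between them, was in 0 of the 10 windows and in 0.164% of all windows. At so low a share, its absence from 10 windows says little about these genes. Sites outside the windows or with other letters were not sought.

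The libraries held 9717111 to 13055457 counts, and the deepest held 1.34 times the counts of the shallowest. FIO1 itself stood at 11.1 and 8.94 CPM (counts scaled to library size with TMM factors) in wild type, at 8.24 and 8.54 CPM in *fio1-1*, and at 6.97 and 8.65 CPM in *fio1-2*. The differences from wild type did not pass the threshold in limma-voom (adjusted p = 0.346 and 0.146). The study describes neither allele as removing the transcript, and the T-DNA line as still making it at a reduced level. As the differences did not pass the test, the level of FIO1 does not settle the label *fio1-2*. Root markers were detected in 12 of 12 cases in every library and had sums of 165 to 171 CPM for wild type, 181 to 195 CPM for *fio1-1* and 204 to 206 CPM for *fio1-2*. Green shoot markers, 7 of 7 detected, summed to 26314 to 26565 CPM, 29890 to 30710 CPM and 24558 to 24621 CPM in the same order. Markers of maturing seeds summed to 0.385 to 0.613 CPM in wild type, where 3 of 8 were detected, to 36.4 to 38.7 CPM in *fio1-1* and to 8582 to 8873 CPM in *fio1-2*, with 8 of 8 detected in both mutants. In *fio1-2* this was 0.861% and 0.888% of the counts, and the part of these markers in the results below was not tested.

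In both mutants 9 of the 10 genes were lower than in wild type, and NRT1.1 was the exception. The call used a Benjamini-Hochberg adjusted p under 0.05 from limma-voom, adjusted over all 21268 tested genes. In *fio1-1* 9 genes fell, 0 rose and NRT1.1 did not pass the test, against 14.3% of all tested genes that were lower and 14.2% that were higher. In *fio1-2* 9 genes fell and NRT1.1 rose, against 16.1% lower and 16.4% higher among all tested genes. The median log2 fold change of the 10 genes was -0.42 in *fio1-1* and -0.38 in *fio1-2*, and that of all tested genes was 0.01 and 0.00. Both comparisons use the same 2 wild-type libraries, so they are not independent of each other.

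Most of these differences were small in size. With an absolute log2 fold change of at least 1 as a further condition, NRT2.1 and ASN2 were called lower in *fio1-1* and NRT2.1 alone in *fio1-2*, against 1.99% and 1.7% of all tested genes called lower. None was called higher, against 2.92% in *fio1-1* and 4.24% in *fio1-2*. Counts of the 10 genes together took up 0.668% and 0.669% of the wild-type libraries, 0.513% and 0.501% of the *fio1-1* libraries, and 0.509% and 0.485% of the *fio1-2* libraries. In bulk seedlings, fewer cells of a type and less RNA per cell cannot be told apart.

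**Figure D1:**
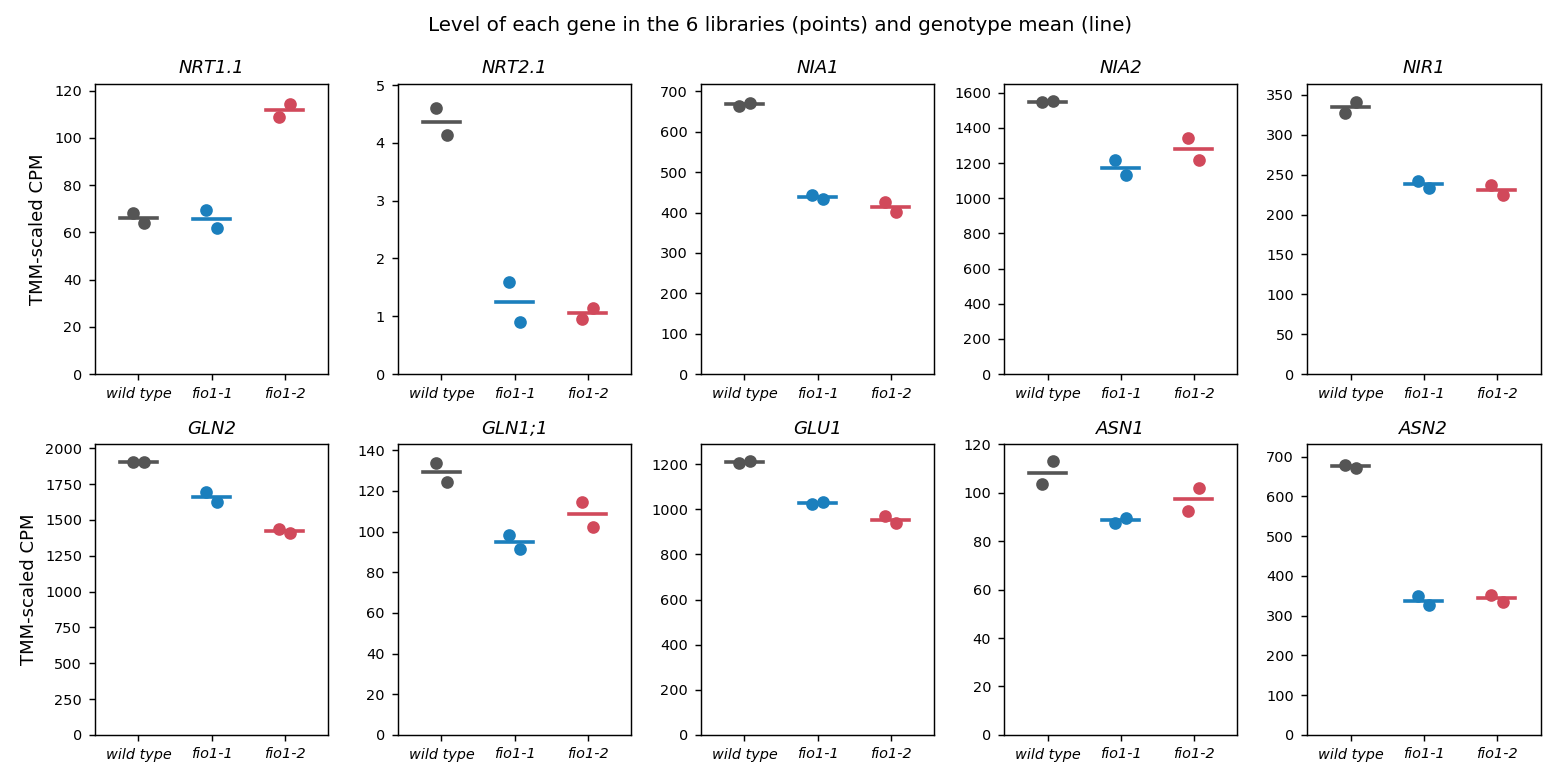
TMM-scaled CPM of each of the 10 genes (y axis, from 0) in the 6 libraries (points) of wild type, *fio1-1* and *fio1-2* (x axis), with the genotype mean as a line. The mutant points lie below the wild-type points in every panel except that of NRT1.1, where *fio1-1* overlaps wild type and *fio1-2* stands above it at 109 and 114 CPM.

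Of the nitrate transporters, NRT2.1 fell in both mutants and NRT1.1 rose in *fio1-2*. NRT1.1, the dual-affinity transporter that also acts as a nitrate sensor, stood at 68.1 and 63.8 CPM in wild type, at 69.3 and 62.0 CPM in *fio1-1*, and at 109 and 114 CPM in *fio1-2*. The *fio1-1* libraries thus overlapped wild type, and both *fio1-2* libraries lay above all the others. Its log2 fold change was -0.01 in *fio1-1* (SE 0.07, adjusted p = 0.96, 95% interval -0.15 to 0.14) and 0.76 in *fio1-2* (SE 0.07, adjusted p = 6.16e-16). *fio1-2* exceeded *fio1-1* by 0.77 on the log2 scale (SE 0.07, adjusted p = 1.14e-15).

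NRT2.1, a main high-affinity transporter of roots, was rare in these seedlings. It stood at 4.6 and 4.14 CPM in wild type, at 1.59 and 0.894 CPM in *fio1-1*, and at 0.955 and 1.15 CPM in *fio1-2*. These levels rest on 45 and 43 counts in wild type, 16 and 9 in *fio1-1*, and 10 and 15 in *fio1-2*. All 4 mutant libraries lay below both wild-type libraries, and the mutants overlapped each other. On the log2 scale NRT2.1 fell by 1.825 in *fio1-1* (SE 0.39, adjusted p = 1.64e-04) and fell by 2.002 in *fio1-2* (SE 0.39, adjusted p = 2.64e-05), with 95% intervals of the log2 fold change from -2.61 to -1.04 and from -2.78 to -1.22. The summed root markers given above were higher in the mutants than in wild type, and NRT2.1 was lower. The part of root content in the level of NRT2.1 was not tested.

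NRT2.1 has a neighbour on chromosome 1, NRT2.2, which encodes a close relative and was listed at 0 counts in all 6 libraries. Their transcripts matched at 86.8% of the aligned bases, with an unbroken identical stretch of 170 bases. Reads from that stretch could have been dropped or assigned to either copy. The other pairs compared (NIA1 with NIA2, ASN1 with ASN2, GLN2 with GLN1;1, GLU1 with GLU2, GLN1;1 with GLN1;2) shared stretches of at most 44 bases.

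The nitrate reductases and the nitrite reductase fell in both mutants. NIA1 stood at 665 and 672 CPM in wild type, at 444 and 434 CPM in *fio1-1*, and at 426 and 402 CPM in *fio1-2*. Its log2 fold change was -0.61 in *fio1-1* (SE 0.04, adjusted p = 7.86e-24) and -0.69 in *fio1-2* (SE 0.03, adjusted p = 2.64e-27). Neither mutant overlapped wild type. The mutants differed from each other by -0.09 (95% interval -0.16 to -0.02, adjusted p = 0.086), which did not pass the threshold.

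NIA2, which is known to supply most of the nitrate reductase activity of leaves, stood at 1546 and 1552 CPM in wild type, at 1216 and 1131 CPM in *fio1-1*, and at 1342 and 1217 CPM in *fio1-2*. The 4 mutant libraries lay below wild type, with the *fio1-2* libraries narrowly above those of *fio1-1*. The log2 fold change was -0.40 in *fio1-1* (SE 0.03, adjusted p = 7.6e-19) and -0.28 in *fio1-2* (SE 0.03, adjusted p = 2.68e-13).

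NIR1, the nitrite reductase gene, stood at 328 and 341 CPM in wild type, at 242 and 234 CPM in *fio1-1*, and at 237 and 225 CPM in *fio1-2*. The wild-type libraries stood apart from the mutants, which overlapped each other. The log2 fold change was -0.49 in *fio1-1* (SE 0.04, adjusted p = 1.75e-15) and -0.54 in *fio1-2* (SE 0.04, adjusted p = 1.46e-17), and the interval of the difference between the mutants ran from -0.13 to 0.04.

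The share of NIA1 in the summed counts of NIA1 and NIA2 was 30.1% and 30.2% in wild type. The *fio1-1* libraries had 26.8% and 27.7%, and the *fio1-2* libraries 24.1% and 24.8%. The 3 genotypes did not overlap, and the exact 95% binomial intervals, which cover counting error only, reached 28.4% at most in *fio1-1* and 25.4% at most in *fio1-2*, below the lowest bound of 29.5% in wild type. With 2 libraries against 2, an exact permutation test cannot go below p = 0.333, so these shares were not tested.

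**Figure D2:**
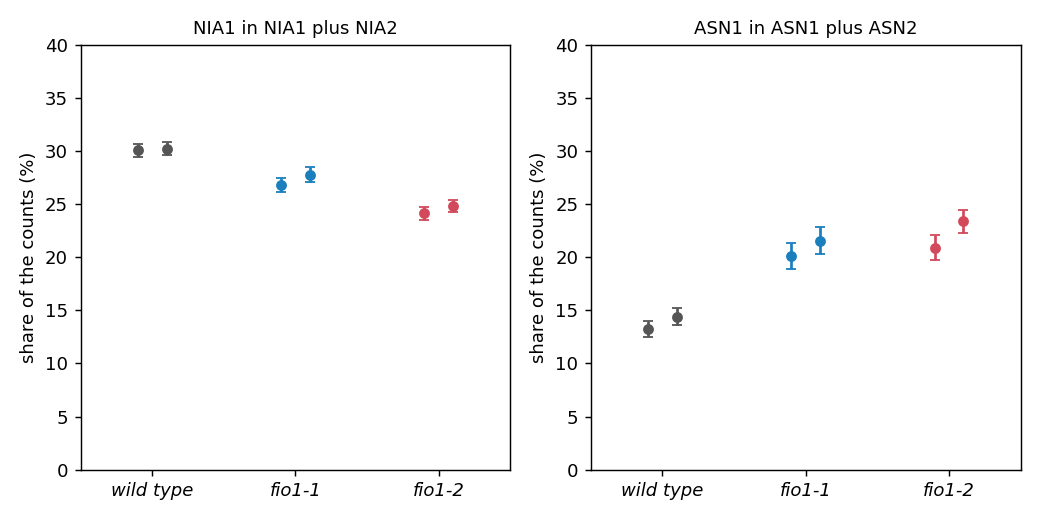
Share of NIA1 in the counts of NIA1 plus NIA2 (left) and of ASN1 in the counts of ASN1 plus ASN2 (right), in percent (y axis, from 0), for the 2 libraries of each genotype (x axis) with exact 95% binomial intervals as bars. The NIA1 share steps down from 30.1% and 30.2% in wild type to 24.1% and 24.8% in *fio1-2*, and the ASN1 share is higher in both mutants than in wild type.

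The genes that build ammonium into glutamine and glutamate were lower in both mutants as well. GLN2, the plastid glutamine synthetase that also recovers ammonium from photorespiration, was the highest of the 10 genes per length. It stood at 1902 and 1906 CPM in wild type, at 1695 and 1628 CPM in *fio1-1*, and at 1437 and 1410 CPM in *fio1-2*. The 3 genotypes were fully separated, with *fio1-2* lowest. This gave GLN2 a log2 fold change of -0.20 in *fio1-1* (SE 0.02, adjusted p = 1.53e-10) and -0.42 in *fio1-2* (SE 0.02, adjusted p = 8.16e-25).

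GLU1, the ferredoxin-dependent glutamate synthase that works with GLN2 in leaves, followed the same order. It stood at 1206 and 1213 CPM in wild type, at 1025 and 1033 CPM in *fio1-1*, and at 968 and 938 CPM in *fio1-2*, again with no overlap between genotypes. For GLU1 the log2 fold change was -0.23 in *fio1-1* (SE 0.03, adjusted p = 7.59e-11) and -0.34 in *fio1-2* (SE 0.03, adjusted p = 8.3e-18). The end of GLU1 overlaps BHLH101 (AT5G04150) on the opposite strand, which held 161 to 285 counts per library against 10137 to 12607 for GLU1. In *fio1-1* the summed green shoot markers were above wild type, and GLN2 and GLU1 were below it. In *fio1-2* those markers were below wild type too. The part of green tissue in the lower GLN2 and GLU1 was not tested in either mutant.

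GLN1;1 encodes a cytosolic glutamine synthetase. It stood at 134 and 125 CPM in wild type, at 98.5 and 91.6 CPM in *fio1-1*, and at 115 and 102 CPM in *fio1-2*. Here *fio1-1* was the lowest group and *fio1-2* lay between it and wild type, without overlap. This gave a log2 fold change of -0.44 in *fio1-1* (SE 0.06, adjusted p = 1.67e-08) and -0.26 in *fio1-2* (SE 0.06, adjusted p = 2.47e-04). Without replicate 2 of *fio1-2* the change in *fio1-2* was -0.17 with an adjusted p of 0.0648.

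ASN2, the asparagine synthetase gene known to be expressed in the light, had the largest change after NRT2.1. It stood at 678 and 672 CPM in wild type, at 348 and 327 CPM in *fio1-1*, and at 352 and 334 CPM in *fio1-2*. The mutants overlapped each other and lay far below wild type. The log2 fold change was -1.001 in *fio1-1* (SE 0.04, adjusted p = 3.46e-34) and -0.980 in *fio1-2* (SE 0.04, adjusted p = 1.73e-34), so that the level was 0.4998 and 0.5071 times that of wild type. The difference between the mutants was 0.02 (95% interval -0.06 to 0.10, adjusted p = 0.786). Both changes lie at the fold minimum of 1. ASN2 therefore missed that condition in *fio1-1* without wild type replicate 1, without *fio1-1* replicate 2 or with upper-quartile factors, and met it in *fio1-2* without *fio1-2* replicate 1.

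ASN1, known as the asparagine synthetase gene of dark-held leaves, stood at 103 and 113 CPM in wild type, at 87.4 and 89.7 CPM in *fio1-1*, and at 92.7 and 102 CPM in *fio1-2*. The mutant libraries lay below wild type, although the upper *fio1-2* library came close to the lower wild-type library. The log2 fold change was -0.29 in *fio1-1* (SE 0.06, adjusted p = 2.07e-04) and -0.15 in *fio1-2* (SE 0.06, adjusted p = 0.0482). In 6 of 17 alternative analyses this last call failed, among them DESeq2 (adjusted p = 0.219) and the fits without wild type replicate 2 (adjusted p = 0.479) or *fio1-2* replicate 1 (adjusted p = 0.328). A short gene annotated over the start of ASN1 on the opposite strand, AT3G47341, was listed at 0 counts in all libraries.

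The share of ASN1 in the summed counts of ASN1 and ASN2 was 13.2% and 14.4% in wild type, 20.1% and 21.5% in *fio1-1*, and 20.9% and 23.4% in *fio1-2*. Both mutants lay above wild type and overlapped each other. Within the glutamine synthetases, GLN2 made up 93.4% and 93.9% of the counts of GLN2 and GLN1;1 in wild type, 94.5% and 94.7% in *fio1-1*, and 92.6% and 93.2% in *fio1-2*. Here the mutants lay on opposite sides of wild type, but the exact 95% binomial intervals of the nearest libraries overlapped. That of *fio1-2* replicate 2 reached 93.58%, above the lower bound of 93.07% in wild type replicate 1. That of *fio1-1* replicate 1 began at 94.17%, below the upper bound of 94.19% in wild type replicate 2.

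**Figure D3:**
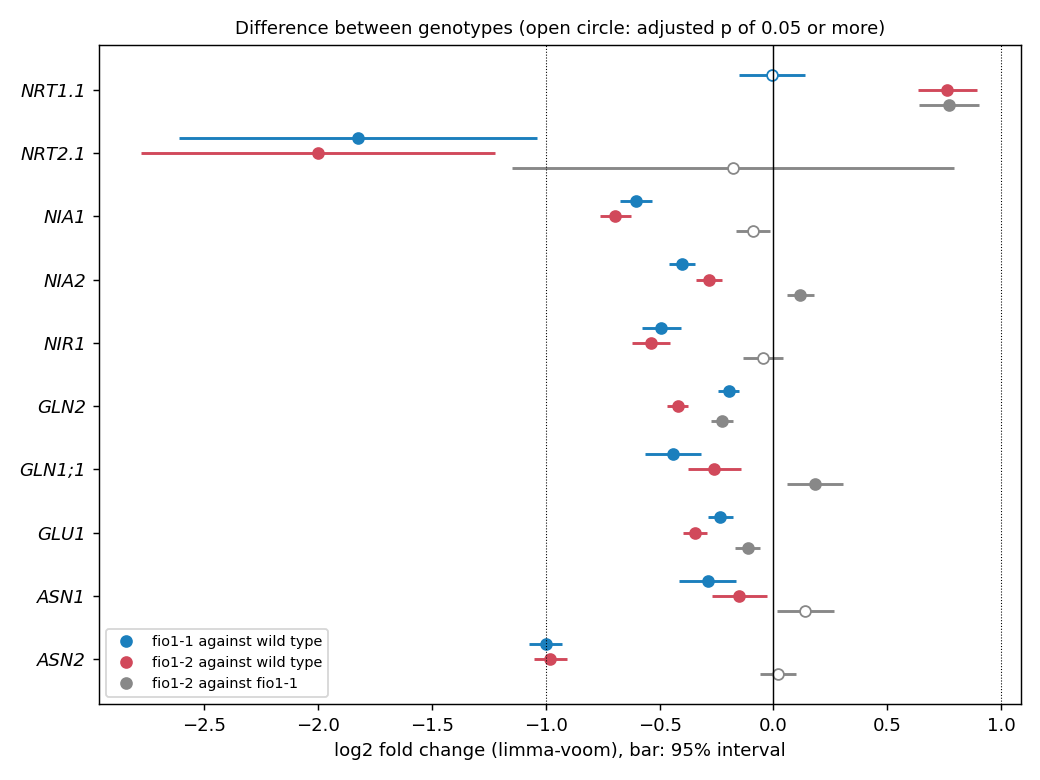
Log2 fold change of the 10 genes from limma-voom (x axis) for each mutant relative to wild type (blue and red) and for *fio1-2* relative to *fio1-1* (grey), with 95% intervals as bars, filled circles for an adjusted p under 0.05 and dotted lines at the fold minimum. NRT2.1 and ASN2 lie farthest below 0 in both mutants, and NRT1.1 in *fio1-2* is the only filled point above 0 against wild type.

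Compared directly, *fio1-2* was higher than *fio1-1* for 3 of the 10 genes and lower for 2, against 9.31% and 8.76% of all tested genes. None of the 10 also reached the fold minimum in either direction, against 2.68% of all tested genes. NRT1.1 had the largest difference, given above. NIA2 (0.12, SE 0.03, adjusted p = 1.97e-03) and GLN1;1 (0.18, SE 0.06, adjusted p = 0.0276) were higher in *fio1-2*, which for these genes means closer to wild type. GLN2 (-0.22, SE 0.02, adjusted p = 7.91e-12) and GLU1 (-0.11, SE 0.03, adjusted p = 1.46e-03) were lower in *fio1-2*. The calls of NIA2 and GLN1;1 were lost in 4 and 5 of the 17 alternatives, including DESeq2 (adjusted p = 0.363 and 0.175) and the fits without *fio1-1* replicate 2 or *fio1-2* replicate 1 (adjusted p = 0.218 to 0.358). The call of GLU1 was lost without *fio1-2* replicate 2 (adjusted p = 0.0602). For NRT2.1 the interval ran from -1.15 to 0.79, and a difference between the mutants was not detectable at its few counts.

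Per kilobase of exon, the level in wild type was highest for GLN2 (906 ± 1.25 CPM per kb, SD, n = 2), followed by NIA2 (483 ± 1.36), ASN2 (303 ± 2.04), GLU1 (220 ± 0.849), NIA1 (212 ± 1.54) and NIR1 (153 ± 4.25). Below them came GLN1;1 (81.4 ± 4.20), ASN1 (39.4 ± 2.47), NRT1.1 (29.9 ± 1.38) and NRT2.1 (2.07 ± 0.155). The libraries of neighbours in this order did not overlap. In both mutants GLU1 stood above ASN2, at 187 and 174 CPM per kb in *fio1-1* and *fio1-2* against 152 and 154 CPM per kb for ASN2. In *fio1-2* NRT1.1 at 50.7 ± 1.80 CPM per kb also stood above ASN1 at 35.4 ± 2.37 CPM per kb.

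Other genes of nitrogen handling were read from lists of loci. Their counts stand beside the shares of all tested genes, 14.2% higher and 14.3% lower in *fio1-1* and 16.4% higher and 16.1% lower in *fio1-2*. Of 17 other nitrate transporters 13 were tested, and 9 rose and 4 fell in *fio1-1*, while 8 rose and 4 fell in *fio1-2*. The median log2 fold change was 0.60 and 0.48. SLAH3, an anion channel that passes nitrate, stood at 20.9 and 18.8 CPM in wild type, 117 and 112 CPM in *fio1-1*, and 36.2 and 37.0 CPM in *fio1-2* (log2 fold change 2.53, SE 0.10, and 0.89, SE 0.11). NPF7.3, which loads nitrate into the xylem, had 21.4 and 22.8 CPM in the wild-type libraries and rose to 68.9 and 73.3 CPM in *fio1-1* and to 78.1 and 88.3 CPM in *fio1-2*. NPF6.2 rose by 0.68 and 1.04 on the log2 scale. NRT2.3, a relative of NRT2.1, changed by -0.83 (adjusted p = 4.02e-03, with 0.0818 without *fio1-1* replicate 2 and 0.0635 with DESeq2) and by -1.37 (adjusted p = 8.4e-06).

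Other transporters moved in opposite directions in the mutants. NPF7.2, which retrieves nitrate from the xylem, rose by 0.46 in *fio1-1* (adjusted p = 2.02e-03, with 0.127 without wild type replicate 1 and 0.0593 with DESeq2) and changed by -0.65 in *fio1-2* (adjusted p = 1.55e-04). NRT2.7, a vacuolar transporter known from seeds, changed by -0.52 in *fio1-1* and 0.48 in *fio1-2*, and the maturing seed markers of *fio1-2* given above were far higher than those of the other groups. The part of seed transcripts in the level of NRT2.7 was not tested. NRT2.2 and NRT2.4 were listed at 0 in every library.

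All 4 tested ammonium transporters fell in both mutants, with median log2 fold changes of -0.80 and -0.65. AMT1;1 stood at 137 and 145 CPM in wild type, at 101 and 96.7 CPM in *fio1-1*, and at 91.3 and 78.2 CPM in *fio1-2*. AMT1;2 changed by -1.09 and -0.58, AMT1;3 by -0.99 and -0.61, and AMT2 by -0.61 and -0.70. AMT1;5 was listed at 0 throughout.

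Among the 16 other genes of ammonium and amide metabolism, 5 rose and 6 fell in *fio1-1*, and 8 rose and 4 fell in *fio1-2*. GLT1, the NADH-dependent glutamate synthase, stood at 828 and 824 CPM in wild type, 489 and 513 CPM in *fio1-1*, and 612 and 598 CPM in *fio1-2* (log2 fold change -0.72 and -0.45, SE 0.03 in each). GLN1;5, a further cytosolic glutamine synthetase gene, had 2 and 4 counts in wild type, 12 and 12 in *fio1-1*, and 70 and 122 in *fio1-2*, an order that the maturing seed markers also followed. The part of seed transcripts in its level was not tested. GLN1;4 (1.25 and 1.59), the asparaginase gene ASPGB1 (1.099 and 1.300) and GLN1;3 (0.36 and 0.57) rose in both mutants, all on few counts except GLN1;3. In *fio1-1* the calls of GLN1;5 and ASPGB1 were lost when any of the 4 libraries compared was left out, and that of GLN1;4 without either wild-type library or *fio1-1* replicate 2 (adjusted p = 0.0937 to 0.348). With DESeq2 the calls of GLN1;4 and ASPGB1 in *fio1-1* were lost too (adjusted p = 0.0942 and 0.187), and that of ASPGB1 also failed with RLE factors, with total counts only, without the low-count filter and with the replicate block (adjusted p = 0.05 to 0.0775). In *fio1-2* the calls of GLN1;4 and ASPGB1 were lost without wild type replicate 1 (adjusted p = 0.0681 and 0.179), and that of ASPGB1 also without *fio1-2* replicate 2 (adjusted p = 0.275) and with DESeq2 (adjusted p = 0.0711). The aspartate aminotransferase gene ASP2 rose by 0.52 in *fio1-2* (adjusted p = 3.82e-11), with 0.05 in *fio1-1* (adjusted p = 0.588).

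Of 13 genes that supply nitrate and nitrite reductase with cofactors and electrons, 8 fell, 0 rose and 5 did not pass the test in *fio1-1*, and 9 fell, 0 rose and 4 did not pass in *fio1-2*, with median log2 fold changes of -0.31 and -0.28. RFNR1, a root ferredoxin NADP reductase, stood at 64.0 and 62.3 CPM in wild type, 29.0 and 29.4 CPM in *fio1-1*, and 32.1 and 29.3 CPM in *fio1-2*. Its log2 fold change was -1.11 (SE 0.09, adjusted p = 3.49e-17) and -1.05 (SE 0.08, adjusted p = 3.52e-17). CNX2, of molybdenum cofactor synthesis, changed by -1.30 and -1.25, UPM1, of siroheme synthesis, by -0.65 and -0.73, and the NADPH-producing G6PD3 by -0.88 and -0.74. G6PD2 changed by -0.64 and -0.62 and the ferredoxin gene FD3 by -0.44 and -0.27 (in *fio1-2*, adjusted p = 0.0687 without wild type replicate 1). In the direct comparison of the mutants none of the 13 passed limma-voom's adjusted p, against 9.31% higher and 8.76% lower among all tested genes. CNX2, UPM1 and G6PD3 each overlap another annotated gene, as do NPF7.3, NPF7.2, NPF6.2, AMT1;1, GLT1, DIT1, GLDP1 and DIN10 in the other lists, so the counts of these genes are less certain.

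Regulators of the nitrate response fell more often than they rose, with 10 of 21 lower and 1 higher in *fio1-1*, and 8 lower and 2 higher in *fio1-2*. Another 10 and 11 did not pass the test, and the median log2 fold change was -0.23 and -0.04. The repressor gene HRS1 stood at 44.9 and 52.3 CPM in wild type, 20.3 and 19.4 CPM in *fio1-1*, and 28.4 and 25.5 CPM in *fio1-2*. AT3G25790, annotated as a myb-like factor, fell by 1.63 and 1.31 on the log2 scale. The myb-like factor genes AT1G68670 (-0.67) and AT1G25550 (-0.57) fell in *fio1-1*. Their values in *fio1-2* were 0.08 (adjusted p = 0.394) and -0.13 (adjusted p = 0.0396). The latter call was lost in 7 of 17 alternatives, namely DESeq2, limma-trend, upper-quartile factors, the replicate block, and the fits without either wild-type library or *fio1-2* replicate 2 (adjusted p = 0.0515 to 0.184). LBD37, a repressor of nitrogen-responsive genes, changed by -0.55 and -0.28. AT3G60320 was the gene that rose in *fio1-1*, by 0.58, with 0.06 in *fio1-2* (adjusted p = 0.542).

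Dark and sugar starvation genes, were listed because ASN1 belongs to that response. Of 11 genes, 2 rose and 4 fell in *fio1-1*, and 2 rose and 5 fell in *fio1-2*. The counts of genes that rose are near the shares of all tested genes that were higher, 14.2% and 16.4%. DIN11 changed by -1.70 and -0.83, DIN1 by -0.60 and -0.25, and BZIP11, a sugar-regulated bZIP factor, by -0.61 and -1.24. DIN2 changed by -1.28 in *fio1-2* (adjusted p = 1.84e-03, and 0.0914 without *fio1-2* replicate 1) and by -0.64 in *fio1-1* (adjusted p = 0.108). BZIP53 rose by 0.71 and 0.33, and DIN10 rose by 0.65 and 0.37.

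Photorespiration releases ammonium that GLN2 and GLU1 recover. Of its 15 listed genes 14 were tested, and all 14 fell in *fio1-2*, while 3 rose and 4 fell in *fio1-1*. The share of lower genes among all those tested in *fio1-2* was 16.1%. In *fio1-1* it was 14.3%, beside 14.2% higher, so the 3 that rose are near that share. The median log2 fold change was -0.28 in *fio1-2* and -0.03 in *fio1-1*, and 13 of the 14 were lower in *fio1-2* than in *fio1-1*, against 8.76% of all tested genes. DIT1, the plastid carrier of oxoglutarate, had the largest changes (-0.52 and -0.74). The glycine decarboxylase gene GLDP1 rose by 0.14 in *fio1-1* and changed by -0.27 in *fio1-2*. AT1G80380 changed by -0.26 and -0.53. The glycine cleavage T-protein gene AT1G11860, the H-protein gene GDCH and the glycolate oxidase gene GOX2 changed by -0.48, -0.37 and -0.38 in *fio1-2*, and by -0.06, 0.02 and -0.02 in *fio1-1*, where none of the 3 passed the test. GOX2 has a close relative, GOX1, with which it may share reads, so its counts are uncertain. The summed green shoot markers were also lower in *fio1-2* than in the other groups, and their part was not tested.

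**Figure D4:**
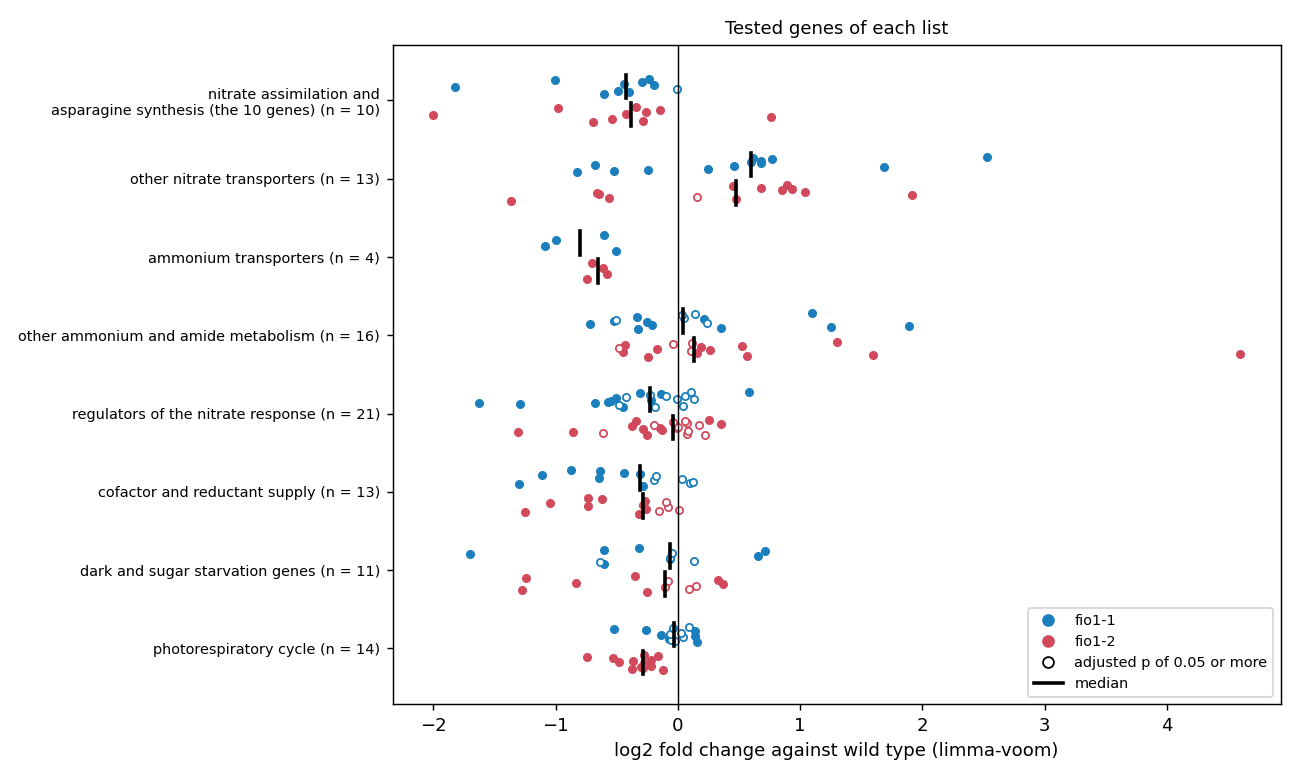
Log2 fold change against wild type from limma-voom (x axis) of each tested gene in 8 lists (y axis), in *fio1-1* and *fio1-2*, with filled circles for an adjusted p under 0.05 and a bar at the median. The 10 genes, the ammonium transporters and the cofactor and reductant genes lie mostly below 0, and the other nitrate transporters lie mostly above 0 (median 0.60 and 0.48).

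The genes whose levels most resembled those of NRT2.1 and ASN2 were sought among 13253 genes with a mean of at least 10 CPM, by Pearson's r of log2 CPM over the 6 libraries. The libraries share depth and genotype, so r describes the pattern only. For NRT2.1 these were DAYSLEEPER (AT3G42170, r = 0.999), AT4G26288 (r = 0.997) and AT3G25470 (r = 0.996), whose own log2 fold changes in *fio1-1* were only -0.26, -0.71 and -0.37. For ASN2 they were the disproportionating enzyme gene DPE1 (AT5G64860), AT5G19440 and AT4G01870, with r of at least 0.999 in each case. Their log2 fold changes differed in size, at -0.87, -1.34 and -3.29 in *fio1-1* and at -0.87, -1.27 and -3.15 in *fio1-2*. DPE1 stood at 83.4 and 81.7 CPM in wild type, and at 46.8, 43.3, 46.3 and 44.0 CPM in the 4 mutant libraries. An r over 0.98 was reached by 69 genes for NRT2.1 and by 236 genes for ASN2.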

How the data were processed

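The data were deposited read counts per gene from 6 libraries of seedlings. According to the submitters' processing notes, the authors used Trim Galore 0.6.3 for trimming, HISAT2 2.1.0 for alignment to TAIR10 and HTSeq 0.9.1 for the counts. Whether counting used the strand is not given in the sources used here. The authors' 2 tables of limma fold changes and p-values were not used.

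From the counts, TMM factors (0.983 to 1.01) and CPM were computed here, and filterByExpr kept 21268 of the 26601 genes with a count. The limma-voom fit held all 6 libraries, grouped by genotype, with no block, and tests were two-sided (R 4.3.3, limma 3.58.1, edgeR 4.0.16, DESeq2 1.42.0). P-values were adjusted by Benjamini-Hochberg over all tested genes. The fit was also run on simulated counts with the same dispersion for every gene and changes only in well-counted genes. That run does not bear on uneven dispersion or on genes with few counts, such as NRT2.1. The 17 alternatives were other tests, scalings, filters, a robust prior, only the compared groups, a replicate block, and leaving out each library. The labels number the replicates without stating independent cultures, so p-values refer to the spread between these libraries only. In limma-voom the spread of each gene was drawn largely from that of all tested genes (62.1 prior against 3 residual degrees of freedom). Very small p-values from 2 libraries per genotype rest on this shared spread.

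The 10 genes and the other lists were chosen with earlier results of these data known. From each other list, at most 6 genes were named, by the largest change among those past the adjusted p with a mean of at least 1 CPM, along with genes at 0 in a whole group. The 3 genes most like NRT2.1 and ASN2 (the 2 members with the largest change in both mutants) were named by r, and the markers were given as sums. Coordinates, names and sequences came from the RefSeq annotation of TAIR10.1. The count tables themselves hold no coordinates.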

Additional observations from a re-analysis of the deposited data

Results flagged for a closer look

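For 5 of the 10 genes the mutants differed from each other by the direct test of the contrast in limma-voom, as log2 fold changes of *fio1-2* against *fio1-1*. They were 0.77 for NRT1.1, 0.12 for NIA2, 0.18 for GLN1;1, -0.22 for GLN2 and -0.11 for GLU1. Of all tested genes, 9.31% were higher and 8.76% lower in this contrast. The calls of NIA2, GLN1;1 and GLU1 were lost in 4, 5 and 1 of the 17 alternatives. Among the genes named from the other lists, NRT2.7 (0.99), NPF7.2 (-1.11) and GLDP1 (-0.41) passed the test in opposite directions in the mutants and also differed between them by the direct test. The call of NPF7.2 in *fio1-1* was lost with DESeq2 (adjusted p = 0.0593) and without wild type replicate 1 (adjusted p = 0.127). No cause was tested for any of these differences.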

How the results depend on the processing

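Of the 510 values of the 10 genes under the 17 alternatives, 485 kept their direction and their side of the threshold. The members past the adjusted p stayed at 9 in *fio1-1* and at 9 or 10 in *fio1-2*. In *fio1-2* against *fio1-1* they were 3 with DESeq2 and 3 to 5 when a library was left out (3 without *fio1-1* replicate 2). With the fold minimum, *fio1-1* had 1 gene with upper-quartile factors and 1 or 2 when a library was left out (1 without wild type replicate 1 or *fio1-1* replicate 2), and *fio1-2* had 1 or 2 (2 without *fio1-2* replicate 1). Values near 0 changed sign. NRT1.1 in *fio1-1* was 0.0327 with upper-quartile factors and -0.0923 to 0.0712 when a library was left out, and the differences between the mutants ran from -0.58 to 0.22 for NRT2.1 and from -0.0278 to 0.0663 for ASN2. The difference of NIA1 between the mutants passed the threshold with upper-quartile factors (adjusted p = 0.0303) and without *fio1-2* replicate 1 (adjusted p = 0.0275). With the replicate block the counts were 9, 10 and 5 past the adjusted p and 2, 1 and 0 with the fold minimum, as without it, and same-numbered libraries did not deviate together (r of 0.001, -0.005 and -0.024 for the genotype pairs). Among 1717 values of the genes named from other lists, 56 lost their call, 3 fell under the fold minimum and 0 changed sign. List counts moved by over 1.5 times in a few cases: with DESeq2, *fio1-2* against *fio1-1* had 4 of the other nitrate transporters in place of 9 and 0 ammonium transporters in place of 3 (also 0 without *fio1-1* replicate 1), and *fio1-2* had 6 regulators in place of 10. Leaving out a library gave 5 other nitrate transporters without *fio1-1* replicate 1, 1 ammonium transporter without either *fio1-2* library, 6 regulators without wild type replicate 2, 7 in place of 11 other ammonium and amide genes in *fio1-1* without either wild-type library, and 4 in place of 7 photorespiratory genes there without wild type replicate 2. Over all tested genes, DESeq2 passed 3574, 4004 and 1926 genes in the 3 comparisons where limma-voom passed 6073, 6911 and 3844. The cause of these changes was not tested. When a library is left out, its group keeps 1 library, which is assumed to vary like the others. Among the 10 genes, NRT2.1 rests on the fewest counts, 9 to 45 per library.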
